A study of Drosophila melanogaster with 4 samples.

Results

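The genes described here are 10 members of the actin and tubulin families and of their closest partners in Drosophila melanogaster, named one by one as families of known function, with earlier results of these data known. They are 3 actin genes (Act5C, Act87E and Act88F), 3 alpha-tubulin genes (alphaTub84B, alphaTub84D and alphaTub85E), 2 beta-tubulin genes (betaTub85D and betaTub97EF), chic and sqh. All 10 were found among the 8240 protein-coding genes of arms 2L, 3R and X that could be placed on the regions. RNA polymerase II phosphorylated on serine 5 of the repeats in its C-terminal tail was mapped by ChIP-seq in Kc167, an embryo-derived female cell line of genotype se/e taken as late embryonic, with no treatment named beyond fixation in 1.8% formaldehyde for 10 min. The series holds 2 ChIP libraries and 2 input libraries. Regions called by the authors come as a list for either ChIP replicate and as 1 list made from both, referred to below as the combined list. No region list of the inputs is analysed here. The labels do not say whether the replicates came from separate cultures, and the spread between them may be technical.

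Actin filaments and microtubules are built from proteins that nearly every cell needs in large amounts, and flies meet that need with small families of similar genes. Some members are switched on in almost all cells, while others are reserved for muscle or for sperm. Polymerase phosphorylated on serine 5 is the form found at promoters and over the early part of active genes. Its regions mark stretches of DNA where this form was enriched, and such a stretch can hold several genes.

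Enriched regions lay over the broadly used genes and not over the muscle and testis paralogs. A member with a region over it is called occupied below, even where that region also holds an end of another gene. In the combined list, 5 of 5 ubiquitous members (Act5C, alphaTub84B, alphaTub84D, chic and sqh) had at least 1 annotated gene end inside an enriched region, and 0 of 3 muscle or testis paralogs (Act87E, Act88F and betaTub85D) did. Of all genes on the 3 arms, 56.9% had at least 1 end inside a region of that list, and 55.4% had in each of the replicate lists. The 2 remaining tubulins divided, betaTub97EF having 1 end inside and alphaTub85E none. Over the gene body, 6 members had at least 1 bp of a combined region, beside 58.3% of all genes. The same 6 members had a region, and the same 4 had none, in replicate 1 and in replicate 2. The groups were named by known expression and are small, so these counts are a description with no test.

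The gene table used carries no strand, so which end of a gene is its start was not read from it. A gene with both ends inside has its annotated start inside whichever way it runs, and a gene with neither end inside has its annotated start outside. In these terms the start lay inside a region for 4 members (Act5C, alphaTub84B, chic and sqh), against 30.5% of all genes with both ends inside in the combined regions, 27.1% in those of replicate 1 and 27% in those of replicate 2. It lay outside for 4 members (Act87E, Act88F, alphaTub85E and betaTub85D), against 43.1% of all genes with neither end inside. The call for Act5C rests on a region that passes its higher-coordinate end by 408 bp, and with gene positions moved by 500 bp towards higher coordinates that end fell outside, which left 3 members. For alphaTub84D and betaTub97EF, with 1 end inside like 26.5% of all genes, the list alone does not settle it. Among genes of 1900 to 4539 bp, the span of all members but chic and betaTub97EF, 33.8% had both ends inside, 66.2% at least 1 and 33.8% neither.

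The 4 members with both ends inside were also covered over their whole length in each list. A complete cover of this kind was seen for 22.2% of all genes in the combined list, with 18.8% in replicate 1 and 19.4% in replicate 2. Those shares are over genes of every length and are not matched to the length of the 4 members.

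**Figure D1:**
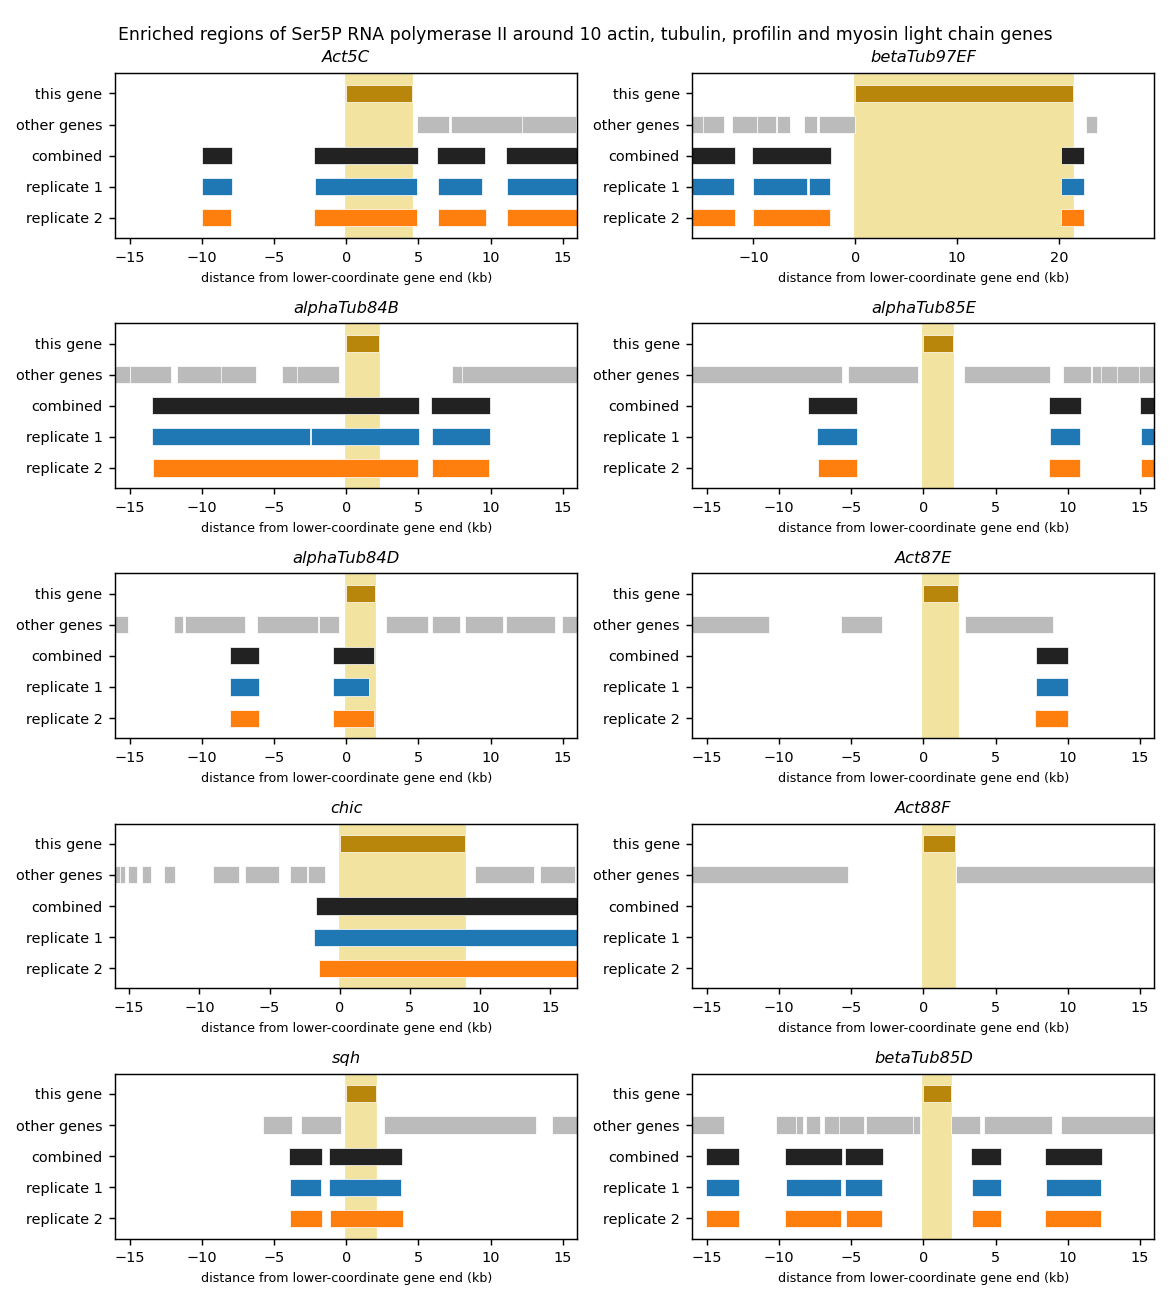
Each panel shows a gene (gold, with its span shaded), the other protein-coding genes around it (grey) and the enriched regions of the combined list (black), replicate 1 (blue) and replicate 2 (orange), against the distance in kb from the lower-coordinate end of the gene. Regions span Act5C, alphaTub84B, chic and sqh in all 3 lists, reach most of alphaTub84D and 1 end of betaTub97EF, and stop short of the other 4 genes.

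Act5C, the cytoplasmic actin gene used throughout the fly, had the highest score of the 10 genes. Scores are the authors' own value per region, on a scale the files do not name, and are compared only within a list. The region over Act5C scored 3.56 in the combined list, with 3.52 in replicate 1 and 3.61 in replicate 2. A lower score was held by 99.3%, 99.0% and 99.5% of the enriched regions of those lists, which placed it at rank 34 of 5074, 48 of 4874 and 26 of 4822. On the release 5 map the combined region lay on X at 5792672 to 5799840 and was 7.17 kb wide, and the replicate regions averaged 7.12 kb ± 0.045 (SD, n = 2). It covered all 4539 bp of the gene in each list. At the lower-coordinate end it ran 2.22 kb beyond the annotated gene, where the next protein-coding gene, CG16721, is 17.5 kb away. At the other end it ran 0.408 kb beyond the gene and took in an end of CG4020.

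alphaTub84B, the main alpha-tubulin gene of most fly cells, lay whole inside a region in every list. Its combined region, on 3R at 2898848 to 2917358, was 18.5 kb wide and scored 3.04, above 96.0% of the list. The gene made up 12.1% of that width. The region also took in the whole of CG1943, Ref1, Dpck and Tailor and an end of Ufl1, so its score belongs to a group of genes and not to the tubulin alone. Replicate 2 had the same single region, 18.4 kb wide with a score of 3.06. Replicate 1 divided it, with a gap of 35 bp, into a part of 11.0 kb that scored 2.61 and a part of 7.48 kb that scored 3.49. The second part held alphaTub84B and an end of Tailor, and 98.9% of replicate 1 regions scored lower. Beyond the higher-coordinate end of the gene the combined region went on for 2.80 kb, while the next gene on that side, e(y)2b, is 5095 bp away.

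alphaTub84D encodes an alpha-tubulin almost identical to that of alphaTub84B, and its region was far lower in the ranking. It scored 1.06 in the combined list, with 1.09 in replicate 1 and 1.12 in replicate 2, above 37.2%, 33.8% and 33.6% of the regions. In each list it thus sat below the median score, whereas the region over alphaTub84B was above at least 96.0%. The gap in rank between the regions over these paralogs was larger than the spread of either between the replicate lists. In the combined list and replicate 2 the region over alphaTub84B also held other whole genes. The gap is therefore between regions and not between the 2 genes alone. The combined region, on 3R at 3355538 to 3358412, was 2.88 kb wide and covered 97.9% of the gene, stopping 42 bp short of the higher-coordinate end. Replicate 1 covered 78.7% and replicate 2 97.1%, a mean of 87.9% ± 13.0 (SD, n = 2). The lower-coordinate boundary was 7 bp apart in the replicates and the higher one 364 bp. The region also held an end of Rtnl2, a neighbouring gene 511 bp away, and at the other side no region followed for 15.2 kb.

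chic encodes profilin, which binds actin monomers and feeds them to growing filaments. It lay in a region on 2L at 5970430 to 5990088 that was 19.7 kb wide and scored 2.91 in the combined list, with 2.90 and 2.93 in replicates 1 and 2. Between 93.4% and 94.3% of the regions of a list scored lower. In width it was among the largest of all, at rank 38 of the combined list, 19 of replicate 1 and 23 of replicate 2, and the replicates averaged 19.6 kb ± 0.310 (SD, n = 2). The gene filled 45.3% of the combined region. All of eIF4A, a helicase of translation initiation, and of ifc was inside as well, together with an end of Ucp4B and an end of Kdm5, so the signal of chic was not separated from that of its neighbours.

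sqh encodes the regulatory light chain of non-muscle myosin II, the motor that contracts actin networks. Its region, on X at 6115870 to 6120978, scored 2.03 in the combined list and in replicate 1 and 2.06 in replicate 2, above 76.0%, 73.1% and 73.8% of the regions. It was 5.11 kb wide in the combined list and 5.02 kb ± 0.063 (SD, n = 2) in the replicates, and it covered the whole gene of 2080 bp. It reached 1.22 kb beyond the lower-coordinate end and 1.81 kb beyond the other, and took in an end of Efr and an end of dtn.

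betaTub97EF, a beta-tubulin isotype known from the gut and a limited set of other cells, showed another form of occupancy. A narrow region of 2.30 kb on 3R, at 23812890 to 23815186, lay over the higher-coordinate end of this 21377 bp gene and covered 5.69% of it. The replicates covered 5.63% ± 0.023 (SD, n = 2). Both boundaries were close in the replicates, 7 bp and 15 bp apart. The score was 2.58 in the combined list, with 2.65 in replicate 1 and 2.52 in replicate 2, above 89.6%, 89.3% and 87.3% of the regions. No other protein-coding gene had an end inside this region, unlike the regions over the other 5 occupied members. The rest of the gene held no region, and the other end lay 2.43 kb from the nearest one.

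**Figure D2:**
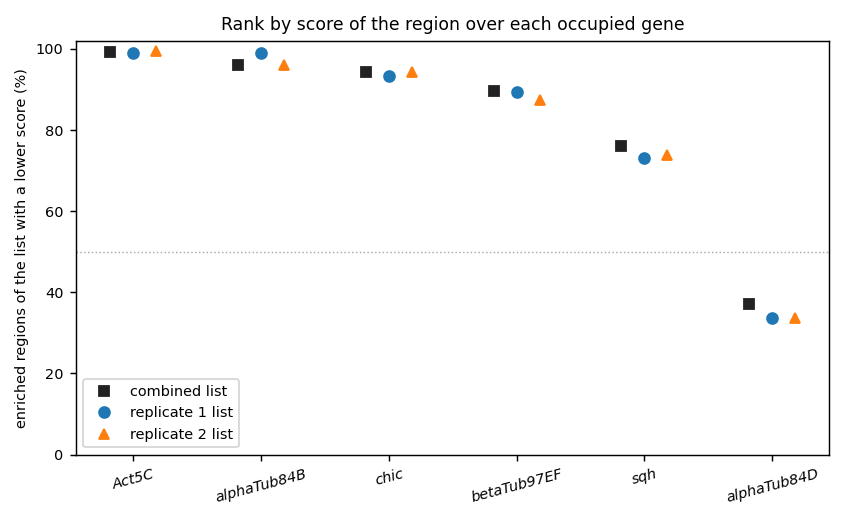
The vertical axis is the percent of enriched regions of the same list with a lower score than the region over the gene, for the 6 occupied members in the combined list (squares), replicate 1 (circles) and replicate 2 (triangles), with a dotted line at 50%. Of these genes alphaTub84D alone lies below the line, at 33.6% to 37.2%, and for alphaTub84B replicate 1 shows the score of the shorter of its regions, 98.9%.

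By score the 6 occupied members stood in the same order in each list, namely Act5C, alphaTub84B, chic, betaTub97EF, sqh and alphaTub84D. Act5C and alphaTub84B were close in replicate 1, with scores of 3.52 and 3.49, and alphaTub84B and chic were close in replicate 2, with 3.06 and 2.93. alphaTub84B kept its place between Act5C and chic, but its distance in score from each differed between the lists. Its region was divided in replicate 1 only, and what part that played was not tested. From chic to betaTub97EF to sqh to alphaTub84D each step in rank was larger than the difference between the replicate lists for either gene.

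The 2 muscle actin genes were free of regions, although their surroundings were not alike. Act87E is used in the muscles of the larval and adult body wall. No region touched its 2393 bp in any list. The nearest one began 5.38 kb past its higher-coordinate end in the combined list and 5.39 kb ± 0.042 (SD, n = 2) past it in the replicates, and it lay over an end of yrt, with a combined score of 1.78. On the other side the nearest region was 21.9 kb away. Act88F is the actin gene of the indirect flight muscles. It alone among the 10 genes had 0% of the 10 kb on each side covered, in all 3 lists. Its nearest regions were 21.8 kb away at one side and 32.8 kb at the other in the combined list, and those distances were 21.9 kb ± 0.073 and 32.8 kb in the replicates (SD, n = 2). The nearer one held an end of Atx2 and scored 1.36 at a width of 10.7 kb. In replicate 1 it was a piece of 2.00 kb that scored 0.53, and in replicate 2 it was 10.6 kb wide and scored 1.45. The more distant held the far end of AdamTS-A, the adjoining gene, and scored 2.55.

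betaTub85D makes the beta-tubulin of the sperm tail and of the other microtubules of developing sperm. It held no region although it stands in a crowded part of 3R. Regions covered 54.9% of the gene and its 10 kb flanks in the combined list, with 53.9% in replicate 1 and 53.9% in replicate 2, against 16.6% of the whole arm in the combined list. The nearest region lay 1.43 kb from its higher-coordinate end, with a score of 0.44, and held an end of Task7 and an end of alpha-Man-IIa. On the other side, at 2.83 kb, a region with a score of 1.01 held ends of CG9356, BBIP1 and CG8135. The replicate distances were 1.45 kb ± 0.018 and 2.84 kb ± 0.006 (SD, n = 2). Of the 3435 genes without a covered base in the combined list, 14.5% were nearer to a region than betaTub85D, whereas 69.5% were nearer than Act88F.

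alphaTub85E, an alpha-tubulin of a few specialised cell types, was likewise without a region over its 2030 bp. Its nearest regions were 4600 bp and 6701 bp away in the combined list, and 4.62 kb ± 0.021 and 6.71 kb ± 0.027 in the replicates (SD, n = 2). They scored 1.55 and 0.85 in the combined list. The first held ends of hyd and FoxP, and the second ends of side-VII and Pnn. Within 50 kb of the gene on each side 48.2% of the bases were covered, the highest share around any of the 10 genes. No region typed as depleted touched any of the 10 genes.

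The coding parts of the actin genes, and of alphaTub84B and alphaTub84D, are similar enough that short reads may align to more than 1 of them. The sources used here do not state how such reads were treated, and the part they play in the regions was not tested. Besides the genes themselves, the 5.38 kb next to Act87E and the 21.8 kb next to Act88F were free of combined regions on both sides. These flanks do not show how shared reads within the genes were treated.

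Other genes of the cytoskeleton were taken from lists set by function and placed in the same way. The score given for a list gene is the highest among regions over either of its ends. Such a region can reach beyond the gene, so the score need not belong to that gene alone. Of 16 regulators of actin assembly, 14 had at least 1 end inside a combined region, 8 of them both ends, beside 56.9% and 30.5% of all genes. The highest scores were those of Fim, which encodes the actin-bundling protein plastin, with 3.04, cib, an actin-monomer-binding protein, with 2.50, and capt, the cyclase-associated protein, with 2.22. The region over cib was 18.3 kb wide. The 2 regulators with no end inside were qua, a villin-like protein of the ovary, which had no covered base, and sn, the fly fascin, of which 18.6% was covered away from its ends. Of the non-muscle myosin genes and regulators, 4 were placed and 4 had an end inside, led by jar, which encodes myosin VI, with 3.07, then flw, a catalytic subunit of myosin phosphatase, with 2.03, and ck, myosin VIIA, with 1.84. The region scored for jar was 9.56 kb wide, and only 11.2% of the 18408 bp of jar was covered, so most of that region lay outside the gene. Of 18 gamma-tubulin and microtubule genes, 17 had an end inside and 7 both ends. Map205, a microtubule-associated protein, scored 2.73, asp, a spindle pole protein, 2.38 and Grip91, a subunit of the gamma-tubulin ring complex, 2.07. The value of Grip91 depended on the list. In replicate 1 its region was 2.91 kb wide in place of 15.1 kb and scored 1.36, below ncd and Klp10A at 1.79 each, while in replicate 2 it scored 2.17. Only tau, best known from neurons, had no covered base among them. The median share of the gene covered by combined regions was 10.4% for the myosin group and 30.4% for the microtubule genes, against 14.8% over all genes. For the actin regulators it varied with the list, from 74.5% with combined regions to 57.7% with those of replicate 1 and 48.7% with those of replicate 2, where the medians over all genes were 11.3% and 11.6%.

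Scores were set against that of Act5C only for genes of the cytoskeleton, muscle, testis and hemocyte lists, and not for all regions. Among these list genes, 3 had the combined scores nearest to that of Act5C, from regions over an end. These genes were jar at 3.07, the hemocyte transcription regulator gene ush at 3.05 and Fim at 3.04, each 0.49 to 0.52 lower. In replicate 2 ush was nearer, at 3.38 against 3.61 for Act5C, while in replicate 1 it scored 3.12 against 3.52.

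Lists of muscle and of testis genes held few regions, beside 56.9% of all genes with at least 1 end inside, 30.5% with both and 43.1% with none. Of 7 muscle contractile genes, 0 had both ends inside a combined region and 1 had 1 end inside. That gene was Mlc2, with a score of 0.75. The genes with no covered base were Mhc, Mlc1, up, wupA, Tm2 and TpnC25D, which encode myosin heavy and light chains, troponins and tropomyosin. Of 10 testis genes, 0 had both ends inside and 2 had 1. These were topi with 2.78, in a region 4.17 kb wide with 37.8% of the gene covered, and bam with 1.95. The region over bam covered 13.7% of the gene and was 22.6 kb wide in the combined list but 16.3 and 10.2 kb wide in those of replicates 1 and 2. Mst87F, Mst84Da, Mst84Db, Mst84Dc, Mst84Dd, Mst98Ca, Mst98Cb and dj, all genes of late sperm formation, had no covered base. They are short, at 413 to 1319 bp, and the shares of all genes given here are not matched to that length. The counts of muscle and testis genes were the same in both replicate lists. Of 11 hemocyte and basement membrane genes, taken because Kc167 is held to be hemocyte-like, 9 had an end inside and 5 both ends, beside 56.9% and 30.5% of all genes. The transcription regulator genes ush and srp scored 3.05 and 2.55 and vkg, a collagen IV gene, 2.65, while the receptor genes Sr-CI and NimC1 had no covered base.

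**Figure D3:**
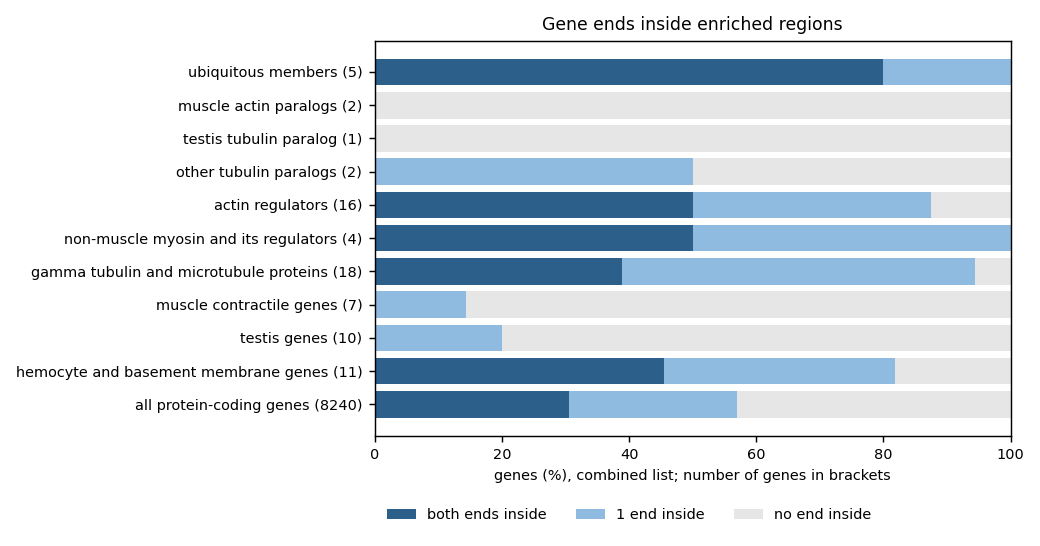
Bars give the percent of genes of each list with both annotated ends (dark blue), 1 end (light blue) or no end (grey) inside an enriched region of the combined list, with the number of genes in brackets. The bars of the muscle actin and testis tubulin paralogs are wholly grey, and the lowest bar gives all 8240 genes, of which 30.5% had both ends inside.

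Gene positions of release 6 were moved to the release 5 positions of the lists by a constant for each arm, and the lists themselves show how well that fits. With the stated constant, 42.3% of gene ends on 2L, 43.8% on 3R and 45.3% on X fell inside combined regions. A further shift of 5 kb either way lowered these shares to between 27.9% and 29.5%, and 100 kb to between 15.5% and 18.3%. In windows of 1 Mb the stated constant gave a higher share than both 5 kb shifts in 23 of 23 windows of 2L, 28 of 28 of 3R and 22 of 23 of X. Within 500 kb of each of the 10 genes the same held, with the smallest margin around Act87E, where the share was 34.9% against 29.5% and 33.3%. Shifts of up to 500 bp changed the shares little, so distances of that size, such as the 42 bp at alphaTub84D and the 408 bp at the higher-coordinate end of Act5C, are within what this check leaves unresolved.

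**Figure D4:**
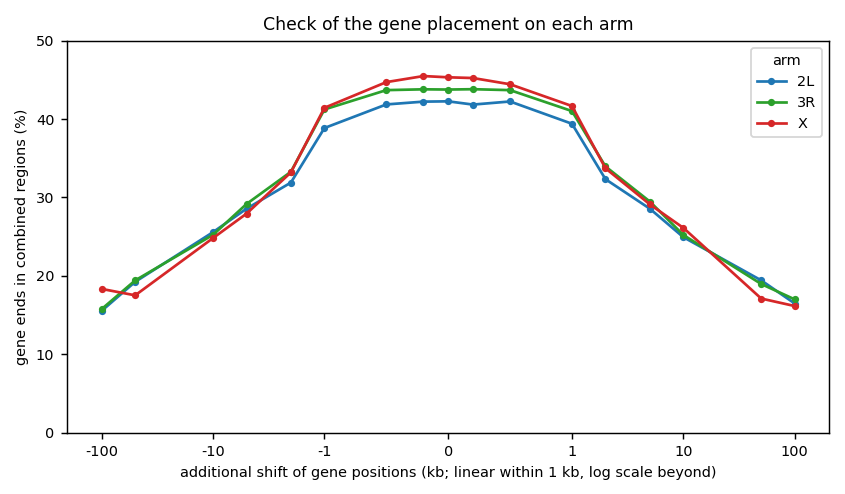
The vertical axis is the percent of protein-coding gene ends inside combined regions and the horizontal axis an additional shift of all gene positions in kb, linear up to 1 kb and logarithmic beyond, for arms 2L (blue), 3R (green) and X (red). On each arm the share is flat near 0 and falls on both sides, from 42.3% to 45.3% at the stated position to at most 18.3% at 100 kb.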

How the data were processed

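Per the labels' protocols, chromatin of Kc167 cells was fixed, sonicated and precipitated, and Bowtie 0.12.7 is named in the submitters' processing notes. What called the regions, with which threshold and control, and how the replicates were merged is not stated in the labels or headers. The authors deposited a score per region without naming its scale, positive in regions typed as enriched and negative in those typed as depleted. It is used only within a list. Positions are FlyBase release 5, per the file headers. Sequencing depth is unknown.

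Protein-coding genes were taken from a RefSeq table of release 6 and moved by 1 constant per arm (0 on 2L). That table has no strand and 1 start and end per gene, so both ends were used where start sites had been planned, a choice made after seeing the data, and alternative starts were not used. A gene end was inside a region when they shared at least 1 bp. Genes of other arms and sequences of the genes are not reported here. rok was not found under that symbol. All 10 genes are named, with other genes ending in their regions. So are the 3 highest-scoring genes of each list, the list genes without a region and the 3 list genes nearest to Act5C in score. The members and lists were chosen with earlier results of these data known. No test was run, since 1 condition was measured and genes are not replicates. Each mean ± SD has n = 2, the replicate lists. The overlap code was tested on simulated data. Alternatives were each replicate list alone, regions at or above the median score, depleted regions included, shifts 500 bp larger or smaller, windows of 250 bp at gene ends, and minimum shares of the gene of 10% and 50%. Python 3.11.15, numpy 2.4.6, pandas 2.3.3 and matplotlib 3.10.9 were used.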

Additional observations from a re-analysis of the deposited data

How the results depend on the processing

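The number of members with both ends inside a region was 4 in the combined list, 4 in either replicate list, and 3 to 5 under the other settings. With a shift 500 bp smaller it was 3, without Act5C. It was 5, with alphaTub84D added, when the shift was 500 bp larger or when 1 bp of a window of 250 bp on each side of the end sufficed, and 4 when 50% of that window had to be covered. At least 1 end was inside for 6 members in every setting but the one that kept only regions at or above the median score, where alphaTub84D dropped out and 5 remained. A region covered at least 10% or 50% of the gene for 5 members, without betaTub97EF. The muscle and testis paralogs had 0 ends inside under all settings. The 38 placed cytoskeleton genes had both ends inside for 17 in the combined list and 15 to 17 in the replicate lists, but for 7 when only regions at or above the median score counted. As shares these were 44.7%, 39.5% to 44.7% and 18.4%, beside 30.5%, 27% to 27.1% and 18.9% of all genes. Lists of single replicates gave percentiles of 99.0% to 99.5% for the region over Act5C, 96.1% to 98.9% for alphaTub84B, 33.6% to 33.8% for alphaTub84D, 93.4% to 94.3% for chic, 73.1% to 73.8% for sqh and 87.3% to 89.3% for betaTub97EF. They covered 78.7% to 97.1% of alphaTub84D and 5.62% to 5.65% of betaTub97EF. Depth is unknown, so the absence of a region does not show that polymerase was absent. No paired analysis was possible because no input list is analysed here and no result comes from a test.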
